A study of Mus musculus with 18 samples.

Results

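Classical cadherins hold neighbouring cells together, and the catenins bound to their cytoplasmic tails tie them to the cytoskeleton. The 6 genes described here are 4 cadherins, Cdh1, Cdh3, Cdh2 and Cdh11, and 2 catenins, Ctnna1 and Ctnnd1. The members were all probe sets whose gene symbol on the array platform was 1 of these 6 names, whatever their signals. The genes themselves were chosen with earlier results of these data known. The platform names 18194 genes in all, and these 6 gave 14 of the 45037 probe sets measured, with 1 for Cdh1, 2 each for Cdh3, Cdh2 and Cdh11, 4 for Ctnna1 and 3 for Ctnnd1. In these mouse mammary cells, the Cdh1 signal of every CFC sample lay above that of every MaSC and MYO sample, and both Cdh2 probe sets ran the other way. Of all tested probe sets, 4.19% were split from CFC in this way, in either direction. This grouping was chosen after the values were seen. No CFC array of either Cdh2 probe set reached the signal required for testing, so their direction is partly built in. No member passed the multiple-testing threshold in any comparison.

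A cadherin binds a like cadherin on the next cell through its calcium-dependent outer part. Inside the cell, p120 catenin (Ctnnd1) binds the part of the tail near the membrane and keeps the cadherin at the surface, beta-catenin (Ctnnb1) binds the far end, and alpha-catenin (Ctnna1) links beta-catenin to actin. In the mammary gland, E-cadherin (Cdh1) is the main cadherin of the luminal layer and P-cadherin (Cdh3) is known as a marker of the myoepithelial layer. N-cadherin (Cdh2) and cadherin-11 (Cdh11) are best known from neural and mesenchymal cells. Transcription factors of the Snail, Zeb and Twist families are known to repress Cdh1.

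The 3 populations were sorted from mouse mammary tissue, and the sources used here do not give strain, age or genotype. The MaSC fraction was enriched for stem cells of the gland, estimated at 1 in 50 to 100 cells, and its RNA came from 2000 to 4000 cells. The MYO fraction held basal (myoepithelial) cells at an estimated purity of 94%, which resemble the MaSC cells in phenotype but contain few stem cells; 3000 to 24000 cells were used. The CFC fraction was enriched for progenitors that form colonies in culture, at 1 in 10 cells, and 3000 to 4000 cells were used. By these estimates most cells of the MaSC and CFC fractions are neither stem cells nor colony forming cells. For MaSC and CFC, unwanted cells were removed with magnets before flow sorting, whereas MYO cells were enriched by an immunomagnetic step before sorting. Each population had 3 RNA samples, each hybridised to the Affymetrix chips MOE430A and MOE430B (chips A and B). The labels state biological triplicates for CFC alone, and p-values for the other populations may reflect a spread that is only technical.

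Values are MAS5 signals, the linear brightness of a probe set, and every array had the same trimmed mean of 1500. Probe sets bind with unequal strength, so signals were compared between samples and never between probe sets or genes. The labels were checked against lineage markers. All 8 markers of the basal layer, Krt5, Krt14 and Acta2 among them, were higher in MaSC and in MYO than in CFC by limma's test, and their summed signal was 371707 to 692782 in MaSC and 429900 to 671195 in MYO, against 9796 to 23102 in CFC. The 8 luminal markers, Krt8 and Krt18 among them, summed to 110859 to 150795 in MaSC and 35643 to 114141 in MYO, against 347735 to 604502 in CFC, with 4 of 8 lower in MaSC and 7 of 8 lower in MYO. Signals of 300 or more made up 70 to 75.6% of probe sets on chip A and 76.9 to 80.4% on chip B. The sample MYO1 stood apart in RNA quality: its ratio of 3′ to 5′ signal for Actb was 30 on chip A and 55.5 on chip B, against 10.6 to 16.1 in the other samples, so values without it are given below. By 100 probe sets that the chips share, the chip A arrays of MaSC3, MYO3 and CFC3 matched another sample of their population better than their own on chip B, so for these samples the values do not settle which arrays of chips A and B share an RNA.

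**Figure D1:**
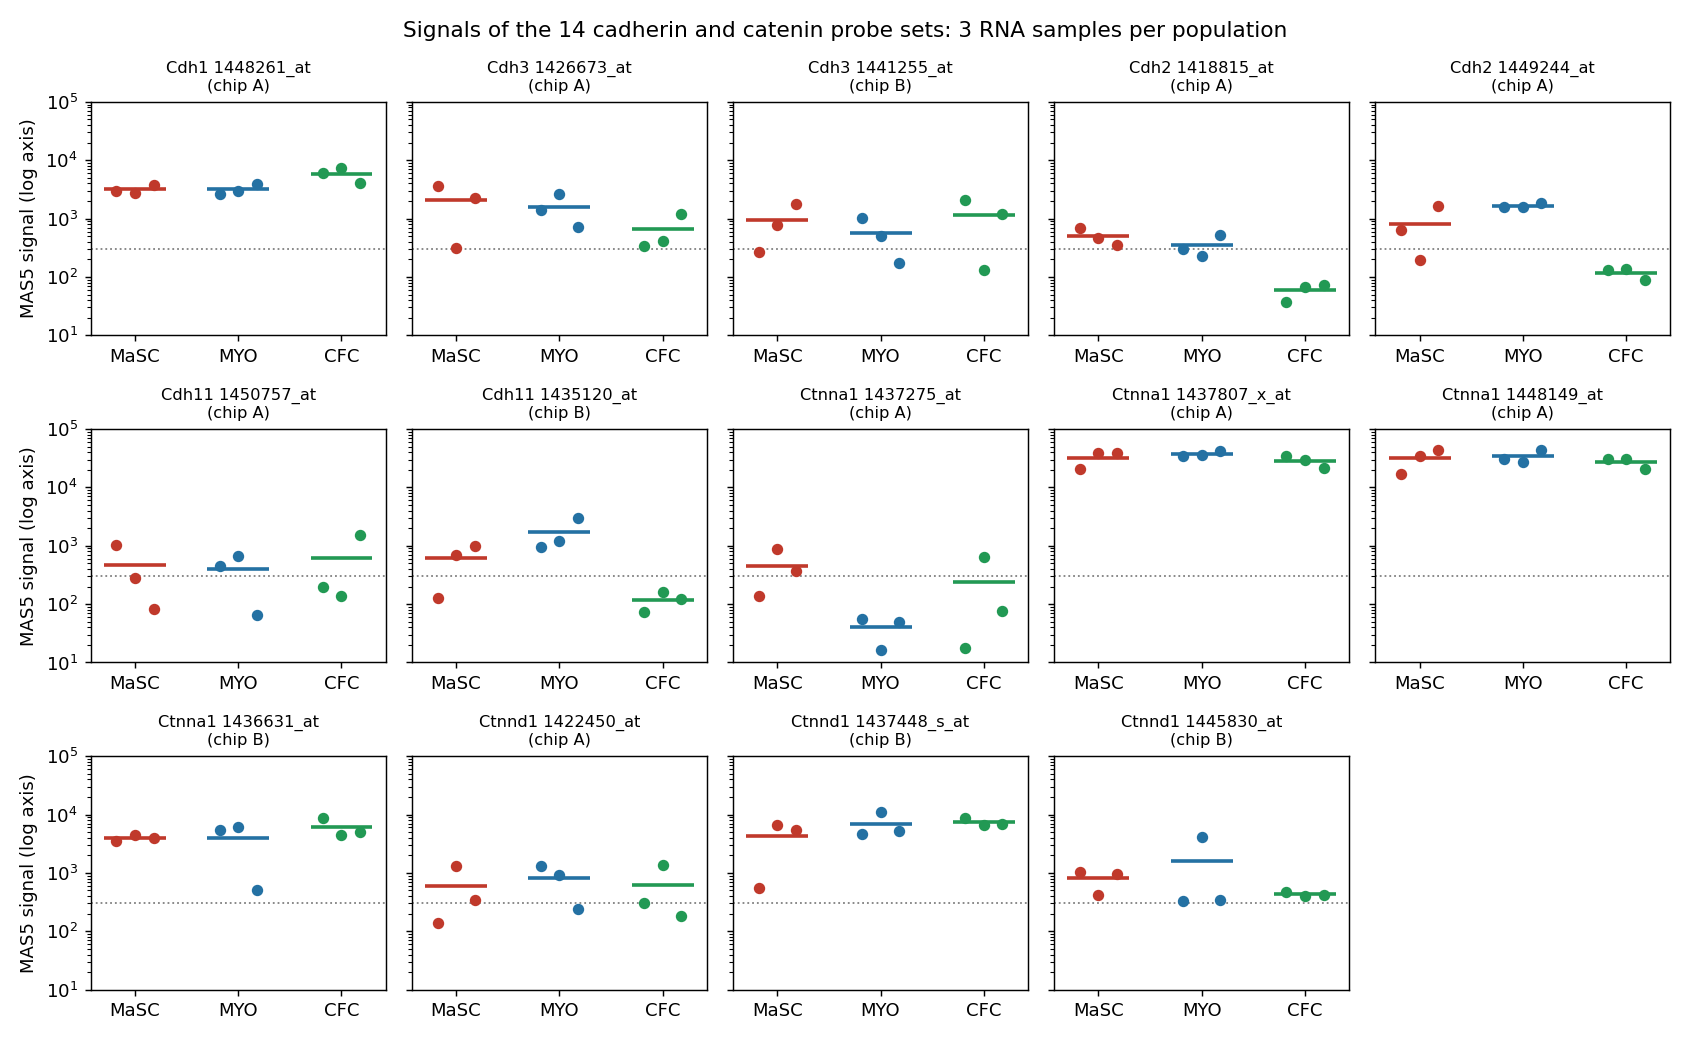
MAS5 signal (log axis) of each of the 14 probe sets in the 3 RNA samples of MaSC, MYO and CFC, with replicates 1 to 3 from left to right within a population. Points are arrays, bars are means of 3 and the dotted line is the signal of 300 used in the filter. Cdh1 lies higher in all 3 CFC arrays than elsewhere, and both Cdh2 probe sets lie below the dotted line in all 3.

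A probe set was tested if 3 or more of the 9 arrays of its chip reached 300, and all 14 members passed. For both Cdh2 probe sets and Cdh11 1435120_at no CFC array reached 300, so these passed only through MaSC and MYO arrays, and a difference in their favour is partly built into the filter. A call was an adjusted p under 0.05 in limma over all tested probe sets of the chip. Called members numbered 0 of 14 for MaSC against CFC, where 0.621% of all 41553 tested probe sets were called. The count was 0 of 14 for MYO against CFC (0.895% of all) and 0 of 14 for MaSC against MYO (0% of all). With shares this low a count of 0 among 14 is close to the background. At an unadjusted p under 0.05 there were 2 members for MaSC against CFC (Cdh2 1418815_at and Ctnnd1 1437448_s_at, against 6.75% of all), 2 for MYO against CFC (Cdh2 1449244_at and Cdh11 1435120_at, 6.61%) and 1 for MaSC against MYO (Ctnna1 1437275_at, 3.99%). The median log2 fold change of the 14 was 0.14, 0.36 and -0.08 in these 3 comparisons, against -0.02, -0.01 and -0.01 over all tested probe sets. Log2 fold changes are on the log2(signal + 150) scale, which understates differences of dim probe sets.

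Arrays that did not overlap between populations were counted as a description. For MaSC against CFC, 2 members lay wholly higher and 1 wholly lower, so 3 of 14, against 11.9% of all tested probe sets. For MYO against CFC, 3 members lay wholly higher and 1 wholly lower, so 4 of 14, against 12% of all. The wholly higher members were both Cdh2 probe sets for MaSC, and these with Cdh11 1435120_at for MYO. No CFC array of these probe sets reached the signal required for testing, so their direction is partly built into the filter. These counts are therefore not read as an excess over the background. For MaSC against MYO, 1 member lay wholly higher, against 8.64% of all. All 6 samples of MaSC and MYO together lay wholly to 1 side of the CFC samples for 3 members, Cdh1 and both Cdh2 probe sets, against 4.19% of all. The same limit of the filter holds there for the Cdh2 probe sets. That last grouping was added after the values had been seen, and by limma it called 0 of 14 members (1.03% of all), with 4 at an unadjusted p under 0.05 (7.27% of all). The first 2 comparisons share the CFC samples, so they are not separate evidence. In RNA from a mixture, fewer cells of a type and less RNA per cell cannot be told apart.

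**Figure D2:**
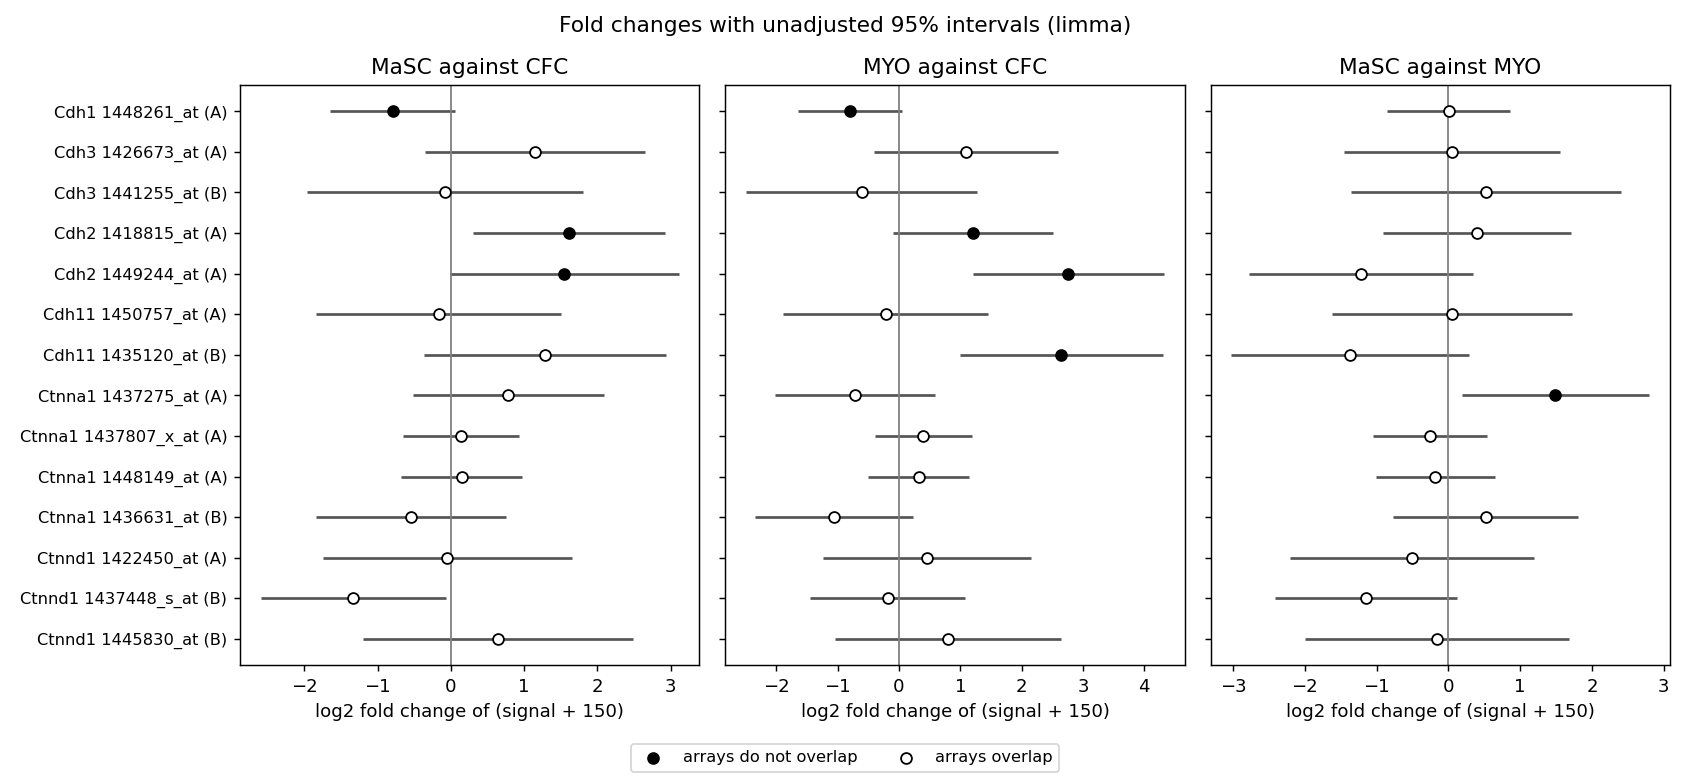
Log2 fold change of each member probe set with its unadjusted 95% interval from limma (3 RNA samples per population), for MaSC against CFC, MYO against CFC and MaSC against MYO. Filled points mark probe sets whose arrays do not overlap between the populations; the letter after each name is the chip. No member was called at an adjusted p under 0.05.

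Cdh1, which encodes E-cadherin, had signals of 2995, 2771 and 3800.04 in the MaSC samples, 2672, 2981 and 3936 in the MYO samples, and 5941, 7244 and 4054 in the CFC samples (1448261_at, chip A). The lowest CFC array, CFC3, stood just above the highest MYO array, and the MaSC and MYO ranges overlapped. The means were 3189 ± 541 in MaSC and 3196 ± 659 in MYO, against 5746 ± 1603 in CFC (SD, n = 3 each). The log2 fold change was -0.79 ± 0.42 (SE) for MaSC against CFC (95% interval -1.65 to 0.058, adjusted p = 0.637) and -0.80 ± 0.42 for MYO against CFC (-1.65 to 0.055, adjusted p = 0.685). Between MaSC and MYO it was 0.0026 ± 0.42, with an interval of -0.85 to 0.85. With MaSC and MYO pooled, the point estimate for Cdh1 was 1.74-fold lower than in CFC, with a log2 fold change of -0.80 ± 0.36 that was not called (adjusted p = 0.472). The smallest absolute log2 fold change that was called on chip A was 1.52 for MaSC against CFC and 1.51 for MYO against CFC, so a difference of the size seen for Cdh1 was below any called at this number of arrays. Cdh1 was among the steadiest probe sets within populations: its residual SD was 0.32 on the log2 scale, and 3.61% of the tested chip A probe sets had a smaller one. Without MYO1 the log2 fold change for MYO against CFC was -0.68, and within the first scan day, which held 2 MaSC, 2 MYO and 3 CFC arrays of chip A, it was -0.92 for MaSC and -0.76 for MYO against CFC. The luminal and basal marker sums given above differ between the same populations, and their part in the Cdh1 values was not tested.

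Cdh3 encodes P-cadherin and is the coding gene next to Cdh1 in the RefSeq order of the mouse assembly GRCm38.p6. Its chip A probe set 1426673_at had signals of 3597, 314 and 2248 in the MaSC samples, 1409.51, 2652 and 704 in the MYO samples, and 344, 421 and 1212 in the CFC samples. The MaSC range spanned that of all 9 arrays, since MaSC2 was the lowest of all 9 arrays and MaSC1 the highest. For MaSC and MYO the point estimates were higher than in CFC: the log2 fold change was 1.15 ± 0.73 for MaSC against CFC (95% interval -0.35 to 2.65, adjusted p = 0.741) and 1.09 ± 0.73 for MYO against CFC (-0.41 to 2.59, adjusted p = 0.820). Neither passed the test, and single samples moved the first: it was 2.04 without MaSC2 (adjusted p = 0.306) and 0.54 without MaSC1. The residual SD of 1.14 was larger than that of 87.2% of tested chip A probe sets. The chip B probe set of Cdh3, 1441255_at, had 267, 772 and 1758 in the MaSC samples, 1005, 506 and 174 in the MYO samples, and 2107, 134 and 1207 in the CFC samples. These overlapped throughout, and the log2 fold changes were -0.08 ± 0.92 for MaSC and -0.61 ± 0.92 for MYO against CFC. Across the 9 samples the Cdh3 probe sets did not track each other (Pearson r = -0.026, n = 9).

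The balance of the neighbouring genes was followed as the Cdh3 log2 signal (1426673_at) minus the Cdh1 log2 signal, whose zero point depends on the probe sets. It was 0.25, -2.66 and -0.72 in MaSC and -0.86, -0.16 and -2.26 in MYO, against -3.62, -3.70 and -1.63 in CFC. The means were -1.04 ± 1.48 in MaSC and -1.09 ± 1.07 in MYO, against -2.98 ± 1.17 in CFC (SD, n = 3 each). The ranges overlapped, because CFC3 stood higher than MaSC2 and MYO3.

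Cdh2 encodes N-cadherin, and both its probe sets were at or above 300 in MaSC and MYO arrays only. The probe set 1449244_at (chip A) had signals of 635, 193 and 1626 in the MaSC samples, 1555, 1592 and 1849 in the MYO samples, and 129, 136 and 88.9 in the CFC samples. The MYO samples were close together and lay above every CFC sample, while MaSC2 stood only a little above CFC. The log2 fold change for MYO against CFC was 2.76 ± 0.76 (95% interval 1.20 to 4.32, adjusted p = 0.0612), the smallest adjusted p of any member. With the CFC signals set to the floor of 300, the geometric mean in MYO was at least 5.53-fold higher. For MaSC against CFC the log2 fold change was 1.55 ± 0.76 (adjusted p = 0.603), and for MaSC against MYO it was -1.21 ± 0.76 (95% interval -2.77 to 0.35, adjusted p = 0.999). The MYO value was called when arrays were weighted by quality (2.73, adjusted p = 0.0428) and when only MYO and CFC were fitted (2.76, adjusted p = 0.0482). It was 2.80 without MYO1 (adjusted p = 0.174) and 2.79 within the first scan day. The MaSC value was 0.96 without MaSC3, 2.14 without MaSC2 and 0.96 within the first scan day, which leaves out MaSC3.

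The dimmer Cdh2 probe set 1418815_at (chip A) had signals of 683, 468 and 351 in the MaSC samples, 296, 227 and 516 in the MYO samples, and 37.3, 68.4 and 72.1 in the CFC samples. Every MaSC and MYO sample lay above every CFC sample, and MaSC and MYO overlapped. Its log2 fold change was 1.61 ± 0.64 for MaSC against CFC (95% interval 0.30 to 2.92, adjusted p = 0.407) and 1.21 ± 0.64 for MYO against CFC (-0.10 to 2.52, adjusted p = 0.693). Against the floor of 300, MaSC was at least 1.61-fold higher than CFC. The order of the MaSC and MYO means was not the same in the 2 probe sets: MaSC averaged 501 ± 168 and MYO 346 ± 151 here, whereas 1449244_at averaged 818 ± 734 in MaSC and 1665 ± 160 in MYO (SD, n = 3 each). In the 9 samples their log2 signals had a Pearson r of 0.605. Both probe sets passed the filter through the populations in which they were brighter, so their agreement in direction against CFC is not separate support.

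Cdh11 encodes a cadherin best known from mesenchymal cells, and its coding neighbours in the assembly order are Cdh8 and Cdh5. The chip B probe set 1435120_at had signals of 129.672, 699 and 999 in the MaSC samples, 952, 1183 and 3029 in the MYO samples, and 72.6, 164 and 120.002 in the CFC samples. All MYO samples lay above all CFC samples, and MaSC1 lay inside the CFC range. In log2 terms the difference was 2.65 ± 0.81 for MYO against CFC (95% interval 0.99 to 4.31, adjusted p = 0.522), and MYO was at least 5.02-fold higher than CFC with the CFC signals set to the floor of 300. It was 1.28 ± 0.81 for MaSC against CFC (adjusted p = 0.952) and -1.37 ± 0.81 for MaSC against MYO (95% interval -3.02 to 0.29). Fewer probe sets were called on chip B than on chip A. For MYO against CFC they were 0.126% of those tested on chip B, with a smallest absolute log2 fold change of 2.34. The MYO value was 2.95 without MYO1 (adjusted p = 0.714) and 2.19 within the first scan day. The MaSC value was 1.89 without MaSC1, and MaSC1 is the only MaSC array of the first scan day, where the difference was 0.071.

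The chip A probe set of Cdh11, 1450757_at, gave another picture. Its signals were 1021, 281 and 83.9 in the MaSC samples, 445, 679.771 and 65.6 in the MYO samples, and 193, 137 and 1538.5 in the CFC samples. Each population held arrays on both sides of 300, and the brightest array of all was CFC3. The log2 fold changes were -0.17 ± 0.82 for MaSC and -0.22 ± 0.82 for MYO against CFC, and the Pearson r with 1435120_at was -0.432 (n = 9).

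Markers of other cells that a sort can carry over were measured beside Cdh2 and Cdh11. The 8 fibroblast markers summed to 15300 to 30035 in MaSC and 18014 to 70558 in MYO, against 15169.7 to 23472 in CFC. None of the 8 was below 300 on every array, and 1 of 8 was called for MYO against CFC, where 0.9% of all genes were called higher. It was the collagen gene Col3a1, with a log2 fold change of 3.00 ± 0.72 (adjusted p = 0.0178). Its signals were 6659, 22532 and 1742 in MYO, overlapping the 194, 2033 and 602 in CFC. By limma, 2 of 8 for MaSC and 3 of 8 for MYO against CFC had an unadjusted p under 0.05, against 7.84% and 7.46% of all genes. The 2 for MaSC went opposite ways, with log2 fold changes of 1.57 ± 0.72 for Col3a1 and -1.32 ± 0.56 for Thy1. The 3 for MYO, Col3a1, Col1a2 and Fn1, were all higher than in CFC. The 6 pericyte markers summed to 5756 to 7532 in MaSC and 5097 to 9431 in MYO, against 4574 to 6285 in CFC. By limma 0 of 6 were called in any comparison, and 0 had an unadjusted p under 0.05. The 4 Schwann cell markers on the arrays summed to 7003 to 15345 in MaSC and 10314 to 15944 in MYO, against 3936 to 6069 in CFC; by limma 0 of 4 were called, 1 for MaSC and 2 for MYO against CFC had an unadjusted p under 0.05, and none was below 300 on every array. The part of these cells in the Cdh2 and Cdh11 values was not tested.

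Ctnna1 encodes alpha-catenin, and its bright chip A probe sets showed no difference beyond the replicate spread. The probe set 1437807_x_at had signals of 20250, 38319.5 and 38464 in the MaSC samples, 34432, 35396 and 41657 in the MYO samples, and 34639, 29592 and 21711 in the CFC samples. The probe set 1448149_at had 16988, 34038 and 44143 in the MaSC samples, 30488, 27344 and 44541 in the MYO samples, and 30429, 30047 and 20597 in the CFC samples. MaSC1 was the lowest array of both and CFC3 the second lowest, so the populations overlapped. For 1437807_x_at the log2 fold change was 0.14 ± 0.39 for MaSC against CFC (95% interval -0.65 to 0.93) and 0.39 ± 0.39 for MYO against CFC (-0.40 to 1.19). For 1448149_at it was 0.15 ± 0.40 (-0.68 to 0.97) and 0.32 ± 0.40 (-0.50 to 1.15) in the same comparisons. All 4 intervals include 0, and the widest reach is a difference of 1.19 on the log2 scale. The log2 signals of this pair of probe sets had a Pearson r of 0.925 over the 9 samples.

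The other Ctnna1 probe sets did not follow that pair. The chip B probe set 1436631_at had 3505, 4455 and 3896 in the MaSC samples, 5521, 5999.99 and 515 in the MYO samples, and 8775, 4453 and 4943 in the CFC samples. MYO3 alone was far below the other 8 arrays. The log2 fold change for MYO against CFC was -1.06 ± 0.63 (adjusted p = 0.962) and -0.008 without MYO3, and for MaSC against CFC it was -0.54 ± 0.63. The dim chip A probe set 1437275_at had 140.196, 871 and 363 in the MaSC samples, 55.7, 16.6 and 49.2 in the MYO samples, and 17.5, 635 and 77.1 in the CFC samples. It is the 1 member whose MaSC arrays all lay above its MYO arrays, with a log2 fold change of 1.49 ± 0.64 (95% interval 0.19 to 2.80, adjusted p = 0.999). No MYO array and 1 CFC array reached 300, so this probe set passed the filter mainly through MaSC.

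Ctnnd1 encodes p120 catenin, which binds cadherins near the membrane. Its chip B probe set 1437448_s_at had signals of 545, 6739 and 5492 in the MaSC samples, 4709, 11027.5 and 5243 in the MYO samples, and 8784, 6619.88 and 6938 in the CFC samples. MaSC1 was far below all other arrays, MaSC2 lay inside the CFC range and MaSC3 below it. For MaSC against CFC the log2 fold change was -1.33 ± 0.62 (adjusted p = 0.943), and it was -0.27 without MaSC1 (adjusted p = 0.984). Within the first scan day of chip B, where MaSC1 was the only MaSC array, the value was -3.44 (adjusted p = 0.0292), so that call rests on 1 array. MYO against CFC gave -0.18 ± 0.62, and 0.042 without MYO1.

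The chip A probe set of Ctnnd1, 1422450_at, had 140.135, 1330.44 and 343 in the MaSC samples, 1295, 933 and 239 in the MYO samples, and 304, 1389.91 and 184 in the CFC samples. The chip B probe set 1445830_at had 1039, 417 and 955 in the MaSC samples, 333, 4180.11 and 342 in the MYO samples, and 474, 402 and 419 in the CFC samples. In both, samples of 1 population differed more than the population means did, and MYO2 alone set the MYO mean of 1445830_at. The log2 fold changes of 1422450_at were -0.05 ± 0.83 for MaSC and 0.46 ± 0.83 for MYO against CFC. For 1445830_at they were 0.64 ± 0.90 and 0.80 ± 0.90 in the same comparisons, and MYO against CFC was -0.25 without MYO2. Pairs of Ctnnd1 probe sets had a Pearson r of 0.44, 0.0019 and 0.022 over the 9 samples.

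**Figure D3:**
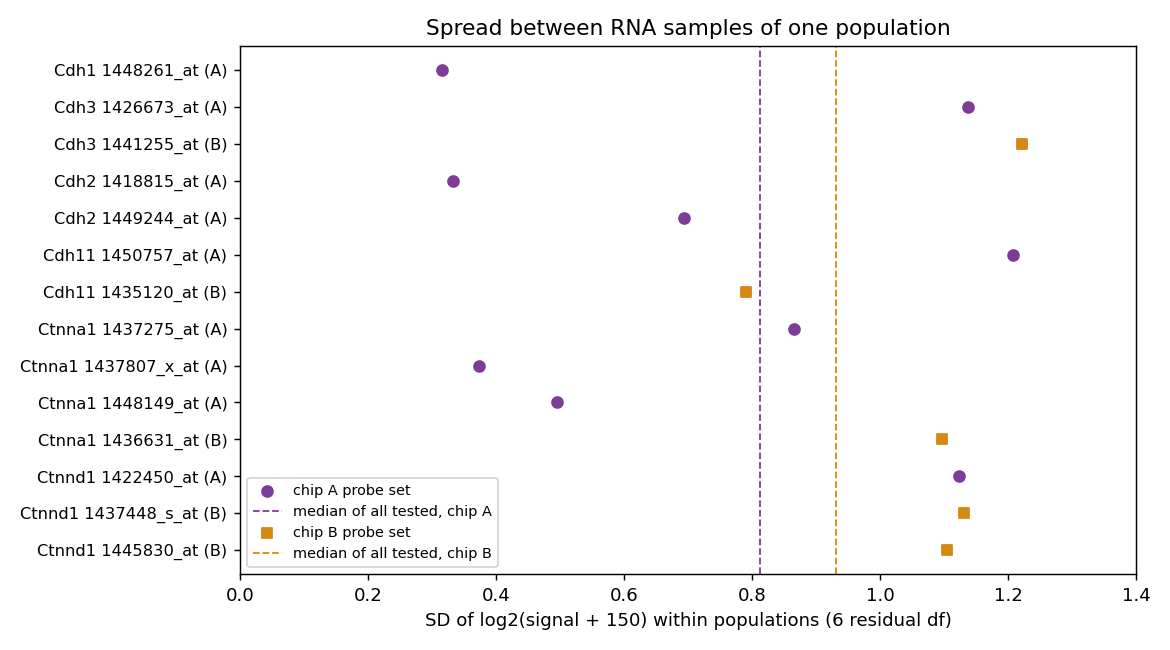
Residual SD of log2(signal + 150) within populations for each member probe set (circles chip A, squares chip B), with the median over all tested probe sets of each chip as a dashed line (0.813 on chip A, 0.931 on chip B). Cdh1, Cdh2 1418815_at and Ctnna1 1437807_x_at vary least on this scale, and both Cdh3 probe sets vary more than the median of their chip. The added 150 narrows the spread of dim probe sets such as Cdh2 1418815_at.

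The spread within populations differed among the members. It was 1.12 for 1422450_at, 1.13 for 1437448_s_at and 1.10 for 1445830_at, the Ctnnd1 probe sets, as a residual SD on the log2 scale. Residual SDs on the log2 scale were 0.33 for Cdh2 1418815_at and 0.37 for Ctnna1 1437807_x_at, below the chip A median of 0.813. They were 1.21 for Cdh11 1450757_at on chip A and 1.22 for Cdh3 1441255_at on chip B, both above their chip's median. Of 12 pairs of probe sets to the same gene, the Ctnna1 pair on chip A (r = 0.925) and the Cdh2 pair (r = 0.605) followed each other most closely.

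Between genes, Cdh1 had a Pearson r of -0.724 with Cdh2 1418815_at, -0.529 with Cdh2 1449244_at and -0.529 with Cdh3 1426673_at. With the other Cdh3 probe set, 1441255_at, its r was -0.084. The Cdh2 probe set 1449244_at had an r of 0.815 with Cdh11 1435120_at but -0.229 with Cdh11 1450757_at. The largest absolute r between genes was that of Cdh11 1450757_at with Ctnna1 1448149_at, at -0.891. Each is over 9 samples that fall into 3 populations, so each draws on the same contrasts as above, along with the spread within populations. Cdh3 1441255_at and Cdh11 1435120_at are on chip B, and the other probe sets named here share the chip A arrays. Each r between probe sets of different chips, the 0.815 among them, rests on the link between chips. The values do not settle that link for MaSC3, MYO3 and CFC3. For each gene the 3 named genes with the most similar pattern on its chip were listed, using the brightest probe set. For Cdh1 these were Uqcrb (Pearson r = 0.955), Cdc42ep5 (0.944) and Il33 (0.941), and for Cdh3 H2-Q5 (0.962), Slc19a3 (0.955) and Epb41l3 (0.945). For Cdh2 they were Ccn2 (0.969), Ddit4 (0.967) and Medag (0.953), and for Cdh11 Abi2 (0.931), Prss23 (0.929) and Mreg (0.928). For Ctnna1 they were Arhgap5 (0.989), Imp3 (0.977) and Mapkapk5 (0.976), and for Ctnnd1 Exoc5 (0.965), Zfp445 (0.959) and Ostm1 (0.956). With 9 samples and so many candidates, each probe set has close matches.

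Partners of cadherins at the adherens junction were described from a list of 25 genes, each by 1 probe set. By limma 0 of 25 were called for MaSC against CFC, 1 was called higher for MYO against CFC and 0 were called for MaSC against MYO, with 3, 3 and 0 at an unadjusted p under 0.05. Over all 17339 genes, 0.629% were called higher and 0.265% lower for MaSC against CFC, 0.9% higher and 0.45% lower for MYO against CFC and 0% for MaSC against MYO, and 7.84%, 7.46% and 3.85% had an unadjusted p under 0.05 in these comparisons. The list's median log2 fold change was -0.28 for MaSC and 0.041 for MYO against CFC, against -0.03 and -0.02 over all genes. The called gene was Lima1, whose product EPLIN binds actin and alpha-catenin. Its signals were 4439, 5562 and 6229 in MaSC and 7494, 13014 and 7692 in MYO, against 2028, 2346 and 1406 in CFC (1422499_at). Lima1 was higher in MYO than in CFC with a log2 fold change of 2.18 ± 0.41 (adjusted p = 0.00148), while MaSC against CFC gave 1.44 ± 0.41 (adjusted p = 0.0924). Its other 4 probe sets had positive values of 0.47 to 1.63 for MYO against CFC and none was called.

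Beta-catenin joins cadherin tails to alpha-catenin, and the populations overlapped in its bright probe set. Ctnnb1 1420811_a_at had 9141, 17488 and 18452 in the MaSC samples, 13283, 16715 and 15872 in the MYO samples, and 13608, 16798 and 12746 in the CFC samples. Its log2 fold change was 0.0065 ± 0.37 for MaSC and 0.09 ± 0.37 for MYO against CFC. Plakoglobin (Jup), its close relative, had 0.36 ± 0.64 and -0.86 ± 0.64 in the same comparisons, with the lowest array in MYO1 (179). Vinculin (Vcl), which binds alpha-catenin and actin, had 0.84 ± 0.43 (adjusted p = 0.629) and 1.06 ± 0.43 (adjusted p = 0.414) by 1416156_at. The other Vcl probe set, 1416157_at, gave 0.31 ± 0.64 and -0.84 ± 0.64, so the sign for MYO was not shared. None of these passed the test.

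The other cadherins were a list of 19 genes, of which 17 were on the arrays and 15 passed the filter. By limma 0 of 15 were called in any of the 3 comparisons, with 0 for MaSC against CFC, 1 for MYO against CFC and 0 for MaSC against MYO at an unadjusted p under 0.05. With 0.9% of all genes called higher and 7.46% at an unadjusted p under 0.05 for MYO against CFC, these counts are close to the background. The median log2 fold change was 0.12 for MaSC and 0.25 for MYO against CFC.

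**Figure D4:**
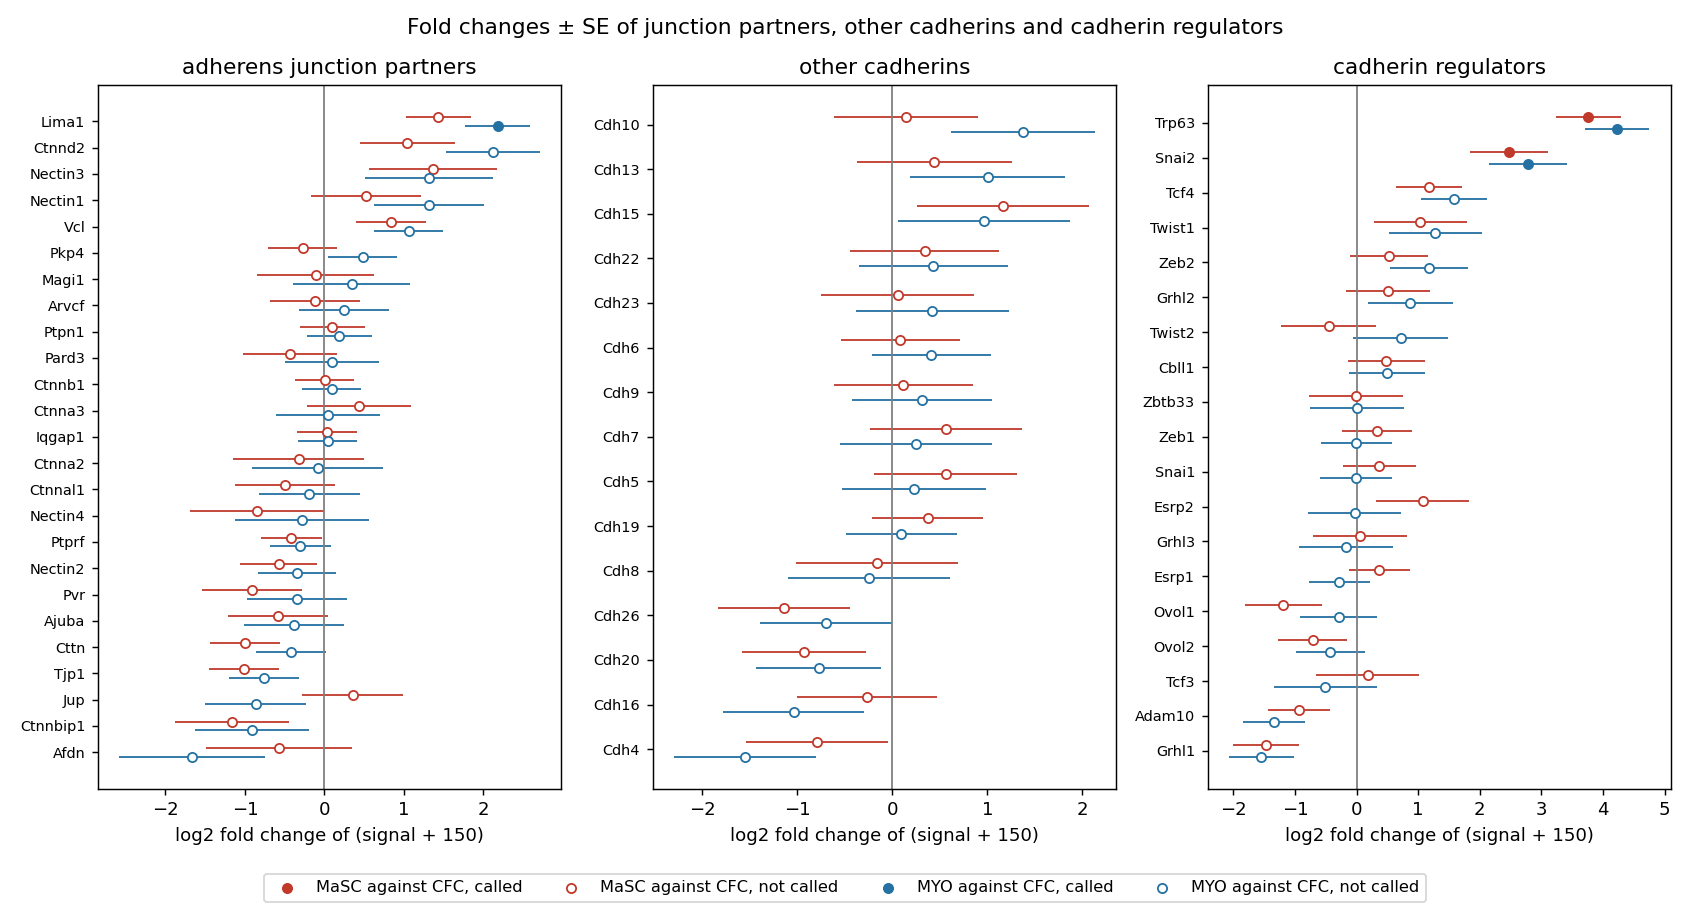
Log2 fold change ± SE (limma, 3 RNA samples per population) of 25 adherens junction partners, 15 other cadherins and 19 regulators of cadherin genes, for MaSC against CFC (red) and MYO against CFC (blue). Filled points were called at an adjusted p under 0.05: Lima1 for MYO, and Trp63 and Snai2 for both.

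Regulators of cadherin genes or proteins were a list of 19 genes, chosen like the other lists with earlier results of these data known. Of these, 2 were called higher for MaSC against CFC, where 0.629% of all genes were called higher and 0.265% lower. The same 2 were called higher for MYO against CFC, and 0 for MaSC against MYO (0% of all genes in either direction). The median of the list was 0.37 for MaSC and -0.0021 for MYO against CFC. The genes were Snai2 and Trp63. Snai2 encodes Slug, a repressor known to act on the Cdh1 promoter, and its signals were 2309.8, 1505 and 3394 in MaSC and 2736, 2213 and 3832 in MYO, against 80.5, 150.28 and 1051 in CFC (1418673_at). All MaSC and MYO samples lay above all CFC samples in this probe set and in the chip B probe set 1447643_x_at, where signals were 7358, 18795 and 73672 in MaSC and at least 31971 in MYO, against 1529.8, 2659 and 1786 in CFC. Snai2 was higher with a log2 fold change of 2.48 ± 0.63 in MaSC (adjusted p = 0.0436) and 2.78 ± 0.63 in MYO (adjusted p = 0.0113), and 1447643_x_at gave 3.39 ± 0.57 (adjusted p = 0.00322) and 4.54 ± 0.57 (adjusted p = 1.6e-05).

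Trp63 encodes p63, a transcription factor of basal epithelium known to act on Cdh3, and it is also on the basal marker list. Its signals were 5510, 4803 and 9595 in MaSC and 7468, 9526 and 9606 in MYO, against 197, 1209 and 82.5 in CFC (1418158_at). Trp63 was higher, with a log2 fold change of 3.76 ± 0.53 for MaSC against CFC (adjusted p = 4.4e-05) and 4.23 ± 0.53 for MYO against CFC (adjusted p = 4.6e-06). Its other probe sets were not called: 1459581_at gave 1.64 ± 0.82 and 1.24 ± 0.82, and 1452027_a_at gave -0.92 ± 0.79 and -0.44 ± 0.79. The remaining 17 regulators, Snai1, Zeb1, Zeb2, Twist1 and Twist2 among them, were not called in any of the 3 comparisons.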

How the data were processed

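RNA of 9 samples (3 each of MaSC, MYO and CFC) was hybridised to 2 chips, giving 18 arrays. The authors deposited linear intensities, 1 MAS5 signal per probe set, per the submitters' processing notes; the sources used here do not give the MAS5 version or target. After removal of values below the 2 and above the 98 percentile, the mean signal was 1500 on every array, so the authors' scaling was kept. Detection calls were not used. The 100 probe sets on both chips were tested on chip A only.

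A pseudocount of 150 (10% of that mean) was added before log2. A probe set was tested with at least 3 of 9 arrays at 300 (20%), which left 20159 on chip A and 21394 on chip B. Names come from the platform annotation, with symbols updated by Entrez identifier in a RefSeq table. Each chip was fitted once over its 9 arrays with limma 3.58.1 in R 4.3.3 (lmFit, eBayes with a variance trend), adjusted by Benjamini-Hochberg within the chip. The fit was tried on simulated chip A signals with large changes added to bright probe sets. That trial does not cover dim probe sets, smaller changes or chip B. For a listed gene the brightest tested probe set was used, taking chip A before chip B.

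Named are all members, called genes of the partner, cadherin and regulator lists, Ctnnb1, Jup, Vcl, Snai2 and Trp63, label markers, and for each member the 3 genes with the most similar pattern. The members and lists were chosen with earlier results of these data known. Alternatives were the pseudocount (1% or 30%), the filter (none or 50%), quantile normalization, no variance trend, array weights, only the 2 groups compared, replicate number or scan day as a block, the first scan day alone, and each sample left out. The number of arrays limits the precision.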

Additional observations from a re-analysis of the deposited data

How the results depend on the processing

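No member was called under most alternatives. The exceptions were 1 for MYO against CFC with array weights and with only the 2 groups (Cdh2 1449244_at, 2.73 and 2.76), and 1 for MaSC against CFC within the first scan day (Ctnnd1 1437448_s_at, -3.44, which rests on MaSC1). With each sample left out in turn, 0 members were called in every comparison. Over all probe sets, calls without a variance trend were 39 for MaSC against CFC, 118 for MYO against CFC and 173 for both against CFC, against 258, 372 and 428 with it; array weights gave 1 for MaSC against MYO, against 0. Leaving out samples gave 159 to 282, 250 to 306, 0 to 1 and 303 to 506 in these 4 comparisons (MaSC against CFC, MYO against CFC, MaSC against MYO, both against CFC). The MaSC against CFC count was 159 without CFC2 and 171 without CFC3. Deviations from the population mean had r from -0.113 to 0.118 between samples of the same replicate number. For MaSC against MYO these r were all positive, at 0.01 to 0.118, against -0.11 to 0.0618 between different numbers. Whether samples of the same number share a preparation cannot be told from these values. With a replicate block the calls were 274, 380, 0 and 445, and 0 members.

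Values that turned sign were all uncalled, and the cause was not tested. For MaSC against CFC these were Cdh3 1441255_at (0.009 with a pseudocount of 1%, 0.080 with array weights), Ctnna1 1436631_at (0.296 with scan day as a block), Ctnnd1 1422450_at (0.197 with array weights), and, within the first scan day, Cdh11 1450757_at (0.369), Ctnna1 1437807_x_at (-0.014), Ctnna1 1448149_at (-0.145) and Ctnnd1 1422450_at (0.089). For MYO against CFC it was Cdh11 1450757_at (0.064 with array weights). For MaSC against MYO they were Cdh1 (-0.051 with quantile normalization, -0.164 within the first scan day), Cdh3 1426673_at (-0.008 with a pseudocount of 1%, -0.481 with array weights), Cdh11 1450757_at (-0.431) and Ctnna1 1448149_at (0.089) with array weights, and Cdh3 1441255_at (-1.063) and Ctnna1 1436631_at (-0.692) within the first scan day.

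Leaving out each sample also turned some signs. For MaSC against CFC the ranges were -0.957 to 0.539 (Cdh3 1441255_at), -0.793 to 0.643 (Cdh11 1450757_at), -0.045 to 0.447 (Ctnna1 1437807_x_at), -0.145 to 0.540 (Ctnna1 1448149_at) and -0.704 to 0.613 (Ctnnd1 1422450_at). For MYO against CFC they were -1.483 to 0.013 (Cdh3 1441255_at), -0.684 to 0.593 (Cdh11 1450757_at), -0.559 to 0.042 (Ctnnd1 1437448_s_at) and -0.253 to 1.329 (Ctnnd1 1445830_at). For MaSC against MYO they were -0.125 to 0.156 (Cdh1), -0.556 to 0.951 (Cdh3 1426673_at), -0.015 to 1.083 (Cdh3 1441255_at), -0.577 to 0.585 (Cdh11 1450757_at), -0.408 to 0.052 (Ctnna1 1437807_x_at), -0.469 to 0.215 (Ctnna1 1448149_at), -0.532 to 1.072 (Ctnna1 1436631_at), -1.163 to 0.012 (Ctnnd1 1422450_at) and -0.687 to 0.895 (Ctnnd1 1445830_at). Cdh1 and both Cdh2 probe sets kept their direction against CFC in every alternative run. Their MaSC and MYO arrays did not overlap those of CFC. Leaving out samples, using the first scan day alone or changing the pseudocount therefore could not turn these signs. The kept direction is no added support.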

Other observations

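Among dim catenin probe sets, Ctnnb1 1430533_a_at, chosen here after its values were seen, read 302, 354 and 439.63 in the MaSC samples, 65.9, 79.2 and 64.6 in the MYO samples, and 62.1, 57.6 and 93.4 in the CFC samples. No array outside MaSC reached 300, so it passed the filter only through MaSC. All MaSC arrays lay above all others, a direction that the filter partly builds in. For MaSC against MYO, the arrays of 8.64% of all tested probe sets did not overlap, in either direction. Ctnna1 1437275_at also lay higher in all MaSC than in all MYO arrays, but there MaSC and CFC overlapped. The log2 fold change of Ctnnb1 1430533_a_at was 1.22 ± 0.53 for MaSC against CFC (adjusted p = 0.493) and 1.22 ± 0.53 for MaSC against MYO (adjusted p = 0.999), so neither passed limma's test. The third Ctnnb1 probe set, 1450008_a_at, gave -0.70 ± 0.74 and -1.12 ± 0.74 in these comparisons.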
